A study of Mus musculus with 2 samples.

Results

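Complex I of the respiratory chain, NADH:ubiquinone oxidoreductase, was examined through its nuclear genes in the gastrocnemius, the large muscle of the calf. The members were all genes whose symbol begins with Nduf and that have at least 1 transcript annotated as protein-coding, which gave 46 of the 55450 genes named in the tables. They comprised 36 structural subunits, 8 assembly factors and 2 genes, Ndufa4 and Ndufa4l2, that carry the name without being counted as subunits today. RNA came from adult female mice of 8 to 10 months from a cross of 5xFAD with CAST, and 2 total RNA libraries form the 1 group. 5xFAD is a transgenic line with mutated human transgenes driven by the neuronal Thy1 promoter and serves as a model of Alzheimer's disease. CAST is a wild-derived inbred strain. The labels do not say whether these animals inherited the transgenes, and no library of a control genotype or another tissue was analysed here. The libraries are numbered as biological replicates 1 and 2 but share a donor identifier, so the spread between them may be technical.

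Complex I takes electrons from NADH in the mitochondrial matrix, passes them along iron-sulfur clusters to ubiquinone and pumps protons across the inner membrane. Its matrix arm holds the sites that oxidise NADH and reduce quinone, and its membrane arm holds the proton channels. The catalytic core is encoded partly in the nucleus and partly in mitochondrial DNA. Accessory subunits surround the core, and assembly factors build the complex without staying in it. Oxidative muscle fibres are rich in mitochondria and depend on this enzyme for their ATP.

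Library 1 held 35594289 expected counts and library 2 held 34541905, and spike-in RNAs made up 0.479% and 0.504% of them. A count of 0 allows a level of up to 3 counts, which is 0.0843 CPM in library 1 and 0.0869 CPM in library 2 (CPM, counts scaled to the library total). The 5 skeletal muscle fibre markers lay between 280 TPM (Myh7) and 17981 TPM (Acta1) as means of both libraries, where TPM gives the abundance of transcripts per length and relative to the library. Markers of other cells that bulk muscle can hold summed to 125 and 138 TPM for fibroblasts, 122 and 138 TPM for pericytes and smooth muscle, 112 and 106 TPM for adipocytes, 23.8 and 25.2 TPM for endothelium, 23.1 and 22.9 TPM for Schwann cells and 4.87 and 4.88 TPM for macrophages. Those of neurons summed to 0.27 and 0.19 TPM. Of 3 heart markers, Nppa and Tnni3 were below 1 TPM and Myh6 averaged 68.7 TPM. How far these cells contributed to the complex I values was not tested. In bulk tissue, fewer cells of a type and less RNA per cell cannot be told apart.

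All 46 members were detected at 1 TPM or more in both libraries, against 44.7% of 21888 nuclear genes with a protein-coding transcript. The 36 structural subunits had a median of 162 TPM in library 1 and 176 TPM in library 2 (169 ± 9.39, SD, n = 2), and 31 of them exceeded 100 TPM in both. The 8 assembly factors had a median of 14.0 and 16.6 TPM (15.3 ± 1.88), against 7.54 and 8.39 TPM for all detected nuclear protein-coding genes. The structural median thus stood 3.47 ± 0.10 log2 units above that of the assembly factors, an 11.6-fold and a 10.6-fold difference in libraries 1 and 2. The 2 classes did not overlap, since the lowest structural subunit was 3.78 and 3.64 times as high as the highest assembly factor. With n = 2 libraries an exact two-sided sign-flip test cannot go below p = 0.5, so no test of these levels was made.

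**Figure D1:**
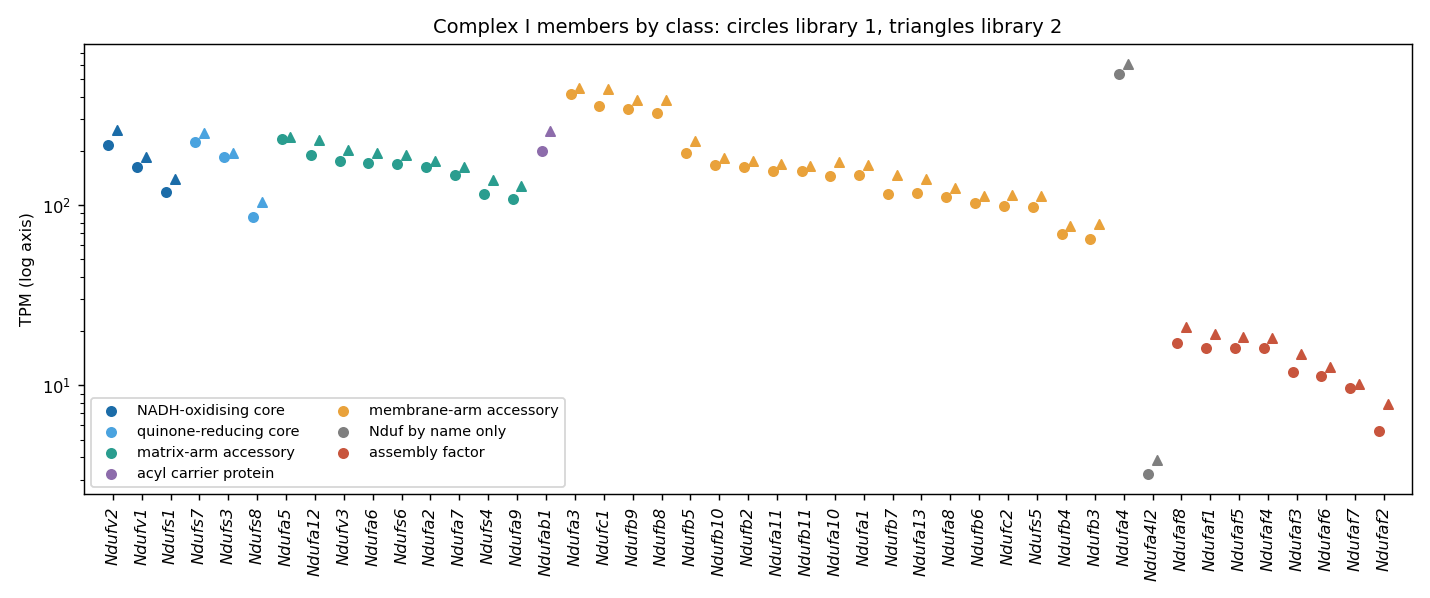
TPM of 45 of the 46 members on a log axis, grouped by class, with a circle for library 1 and a triangle for library 2. Structural subunits lie between 65.0 and 447 TPM and assembly factors between 5.55 and 21.1 TPM, while Ndufa4 and Ndufa4l2 mark the top and the bottom of the whole set.

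The subunits that oxidise NADH lie at the tip of the matrix arm. Ndufv2, an iron-sulfur subunit (chromosome 17, 66078638 to 66101559, mm10 as for all positions below), had 216 and 260 TPM in libraries 1 and 2 (238 ± 31.4). Ndufv1, which holds the flavin that receives the electrons from NADH (chromosome 19, 4007384 to 4012806), had 162 and 184 TPM (173 ± 15.6). Ndufs1, a large subunit with several iron-sulfur clusters (chromosome 1, 63143596 to 63176833), had 118 and 139 TPM (129 ± 15.2). These 3 genes kept the same order in both libraries, and Ndufv2 was 1.85 times as high as Ndufs1.

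The quinone-reducing part has 4 nuclear core subunits, with a median of 205 TPM in library 1 and 224 TPM in library 2 (214 ± 13.3). Ndufs7, which carries the last iron-sulfur cluster before quinone (chromosome 10, 80249121 to 80256794), had 225 and 253 TPM (239 ± 19.6). Ndufs3, a scaffold of this module (chromosome 2, 90894634 to 90904827), had 185 and 195 TPM (190 ± 6.89). Ndufs8, another iron-sulfur subunit (chromosome 19, 3908863 to 3912774), was the lowest core subunit with 86.0 and 104 TPM (94.9 ± 12.6). The core subunits work in equal numbers in the enzyme, whereas these RNA levels were unequal in both libraries.

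The 9 accessory subunits of the matrix arm lay close together, with a 2.01-fold range of means. Ndufa5 was highest with 234 and 239 TPM (237 ± 4.18), followed by Ndufa12 with 191 and 232 TPM (211 ± 28.6) and Ndufv3 with 175 and 202 TPM (189 ± 19.2). Ndufa12 takes the place of the assembly factor Ndufaf2 late in assembly. Ndufs4, whose loss in mice causes a Leigh-like encephalopathy, had 116 and 138 TPM (127 ± 15.4), and Ndufa9, which binds a nicotinamide nucleotide without oxidising it, was lowest with 108 and 128 TPM (118 ± 14.5). Ndufa6, Ndufs6, Ndufa2 and Ndufa7 lay between 148 and 194 TPM in both libraries. Neighbours in this order mostly differed by less than the spread between libraries. Ndufab1, the mitochondrial acyl carrier protein, which also serves mitochondrial fatty acid synthesis (chromosome 7, 122085403 to 122101886), had 200 and 258 TPM (229 ± 41.0), the largest SD among the structural subunits after Ndufc1.

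The 19 accessory subunits of the membrane arm held both ends of the structural range. Ndufa3 (chromosome 7, 3617373 to 3620327) was the highest structural subunit with 412 and 447 TPM (430 ± 25.2). This rank changed in a second quantification by the authors, where Ndufc1 was above Ndufa3 (385 and 469 against 368 and 393 TPM). Ndufc1 (chromosome 3, 51404677 to 51408988) had 357 and 443 TPM (400 ± 60.6). Ndufb9, a protein of the LYR family that anchors an acyl carrier protein (chromosome 15, 58933756 to 58939488), had 340 and 383 TPM (362 ± 30.7), and Ndufb8 had 326 and 383 TPM (354 ± 40.7). A gap separated these 4 genes from Ndufb5, the next in order with 196 and 228 TPM (212 ± 23.0). At the low end, Ndufb3 (chromosome 1, 58586384 to 58595964) had 65.0 and 78.2 TPM (71.6 ± 9.37), while Ndufb4 (chromosome 16, 37647170 to 37654453) had 68.9 and 76.8 TPM (72.8 ± 5.61). The value of Ndufb4 depends on how reads were divided with an identical copy, described below. Ndufs5, Ndufc2 and Ndufb6 came next with means of 105, 107 and 108 TPM. The other 9 genes of this arm, among them the X-linked Ndufa1 and Ndufb11 and the twin-cysteine proteins Ndufa8, Ndufb7 and Ndufb10 of the intermembrane space, had means of 118 to 175 TPM.

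Across all 36 structural subunits the means ran from 71.6 to 430 TPM, and 29 subunits stayed within 2-fold of the structural median in both libraries. Outside that range lay, among others, Ndufa3, Ndufc1, Ndufb9 and Ndufb8 on the high side and Ndufb3 and Ndufb4 on the low side. The SD of log2(TPM + 1) over the structural subunits was 0.64 in library 1 and 0.63 in library 2. Over the 9780 nuclear protein-coding genes detected in both libraries it was 1.70 and 1.72. Smaller values were found for complex II (0.47 and 0.48), complex III (0.53 and 0.50) and the Nduf-named assembly factors (0.50 and 0.47). Complexes IV (3.51 and 3.56) and V (2.60 and 2.70), whose lists include genes without counts, had larger ones.

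Assembly factors were lower and close together. Ndufaf8, the partner of Ndufaf5 (chromosome 11, 120098928 to 120100705), had 17.2 and 21.1 TPM (19.1 ± 2.74). Ndufaf1, which acts in membrane arm assembly (chromosome 2, 119655446 to 119662827), had 16.2 and 19.4 TPM (17.8 ± 2.26). Ndufaf5, which hydroxylates an arginine of Ndufs7, had 16.2 and 18.6 TPM (17.4 ± 1.65), and Ndufaf4 had 16.0 and 18.3 TPM (17.2 ± 1.63). The order among these 4 genes rested on differences smaller than their spread between libraries. Ndufaf3, the partner of Ndufaf4 in the quinone module, had 11.9 and 14.9 TPM, and Ndufaf6 had 11.2 and 12.6 TPM. Ndufaf7, a methyltransferase needed for assembly of the matrix arm (chromosome 17, 78937136 to 78948052), had 9.71 and 10.2 TPM (9.95 ± 0.33). Ndufaf2, the chaperone replaced by Ndufa12 (chromosome 13, 108002715 to 108158623), was lowest with 5.55 and 7.88 TPM (6.72 ± 1.65). Its expected counts were only 99 and 122.

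The assembly factors that do not carry the Nduf name spread more widely around similar levels. These 11 genes had a median of 9.94 TPM in library 1 and 11.9 TPM in library 2, and all were detected in both. Coa1 was also listed but matched no symbol in the tables used. Ecsit, which works with Ndufaf1 in the membrane arm assembly complex, was highest with 29.8 and 37.2 TPM (33.5 ± 5.23). Its partners Acad9 and Tmem126b had 9.94 and 11.9 TPM, and 6.93 and 7.77 TPM. Nubpl, which supplies iron-sulfur clusters to the complex, was lowest with 1.81 and 2.39 TPM (2.10 ± 0.41). None of the 8 and 11 assembly factors on these lists reached the level of the lowest structural subunit.

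The 2 genes that are Nduf by name lay at opposite ends of the set. Ndufa4, first described with complex I and now assigned to cytochrome oxidase (chromosome 6, 11900292 to 11907497), was the highest member with 534 and 604 TPM (569 ± 49.9), which was 3.29 and 3.44 times the median structural subunit. Ndufa4l2, its relative known as a target of hypoxia signalling (chromosome 10, 127514967 to 127517154), was the lowest member with 3.23 and 3.83 TPM (3.53 ± 0.42), from 82 and 84 counts. The means of the pair differed 161-fold.

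Complex I members held 1.79% of nuclear protein-coding TPM in library 1 and 1.78% in library 2 (1.78 ± 0.0037%), of which the structural subunits made up 1.62% in each. Complex III held 0.645% and 0.644% over 9 genes, complex IV 1.16% and 1.18% over 18 genes and complex V 1.55% and 1.56% over 18 gene entries. Per gene, the structural subunits of complex I had a lower median than the other complexes. That median was 162 and 176 TPM for complex I, against 211 and 239 TPM for complex II, 303 and 354 TPM for complex III, 275 and 314 TPM for complex IV and 281 and 315 TPM for complex V. The ranges overlapped widely, and no test over genes was made. The lists of complexes IV and V include isoform genes that other tissues use, such as Cox8c, which had no counts here.

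**Figure D2:**
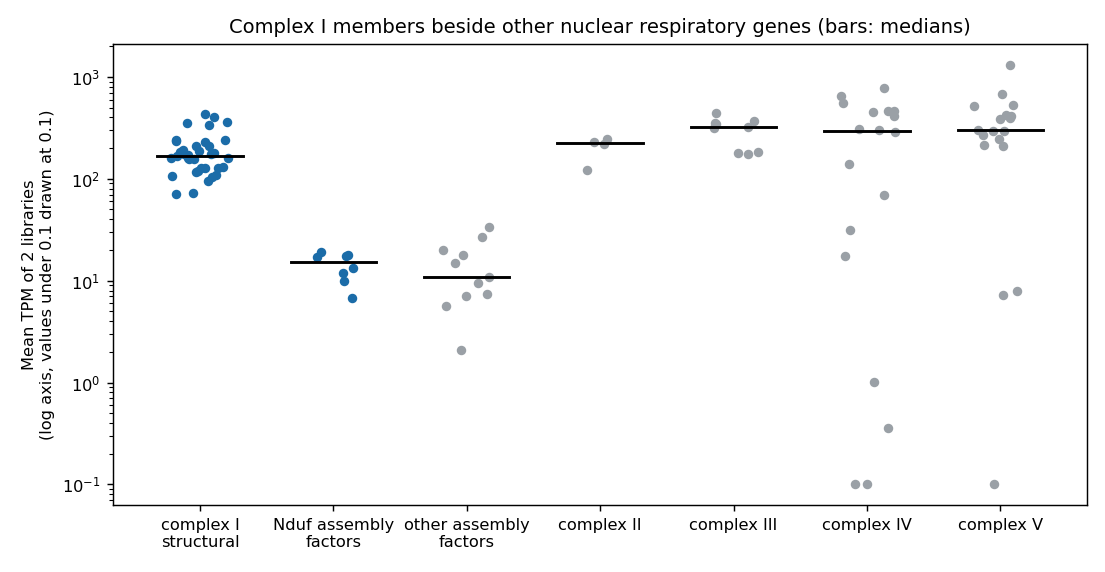
Mean TPM over both libraries on a log axis, 1 point per gene, with a bar at the median of each list. Complex I structural subunits sit above both lists of assembly factors, and their median lies below those of complexes II to V.

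The mitochondrially encoded partners of these subunits stood far above them. The 7 genes mt-Nd1 to mt-Nd6 and mt-Nd4l summed to 26176 TPM in library 1 and 31302 TPM in library 2. That was 4.13 and 4.34 times the sum of the 36 nuclear structural subunits, which was 6342 and 7210 TPM. The lowest of them, mt-Nd6, had 959 and 968 TPM, more than any nuclear member. Nuclear copies of mitochondrial DNA make some of these values uncertain. Of all 100-base windows, 97.6% for mt-Nd3, 98.5% for mt-Nd4l and 60.7% for mt-Nd4 occur in another annotated gene.

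The libraries were compared on expected counts after TMM scaling, which sets library sizes so that most genes keep the same level, as the log2 ratio of library 1 over library 2. The median ratio of the 46 members was -0.03, against -0.01 for the 11065 genes with a mean of at least 1 TPM. Of 45 members with enough signal, none was 2-fold or more apart, against 0.494% of 6683 genes, and none was 1.5-fold or more apart, against 2.29%. The TMM-scaled ratio was below 0 for 30 of the 46 members, against 51.9% of the 11065 genes. In deposited TPM, 45 of the 46 members were higher in library 2, and the share of all genes was not computed. On that scale the median over all genes was itself shifted to -0.17, and that of the members was -0.19.

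For some abundant subunits the counting interval of a small ratio excluded 0 under TMM scaling. The exact (Clopper-Pearson) 95% counting interval lay below 0 for 10 members, against 15.9% of all genes tested, and above 0 for 3 members, against 14.5%. Intervals and floors cover counting error only, and the intervals take the scaling as fixed. With spike-in scaling the median ratio of the members moved from -0.03 to 0.04, and the interval counts were not recomputed. Higher counts give narrower intervals, and most members lie above the typical gene, so the shares are not like for like. Ndufb7 had 1867 and 2037 counts, a ratio of -0.17 (-0.26 to -0.07), and Ndufab1 had 2490 and 2710, a ratio of -0.16 (-0.24 to -0.08). Ndufa5 and Ndufb11 were among the members with intervals above 0, at 0.10 and 0.07. Among the 8 Nduf-named assembly factors no interval excluded 0. Their largest ratios, -0.34 for Ndufaf2 (-0.74 to 0.05) and 0.24 for Ndufaf7 (-0.00 to 0.49), rested on 99 and 122 counts and on 302 and 248 counts.

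**Figure D3:**
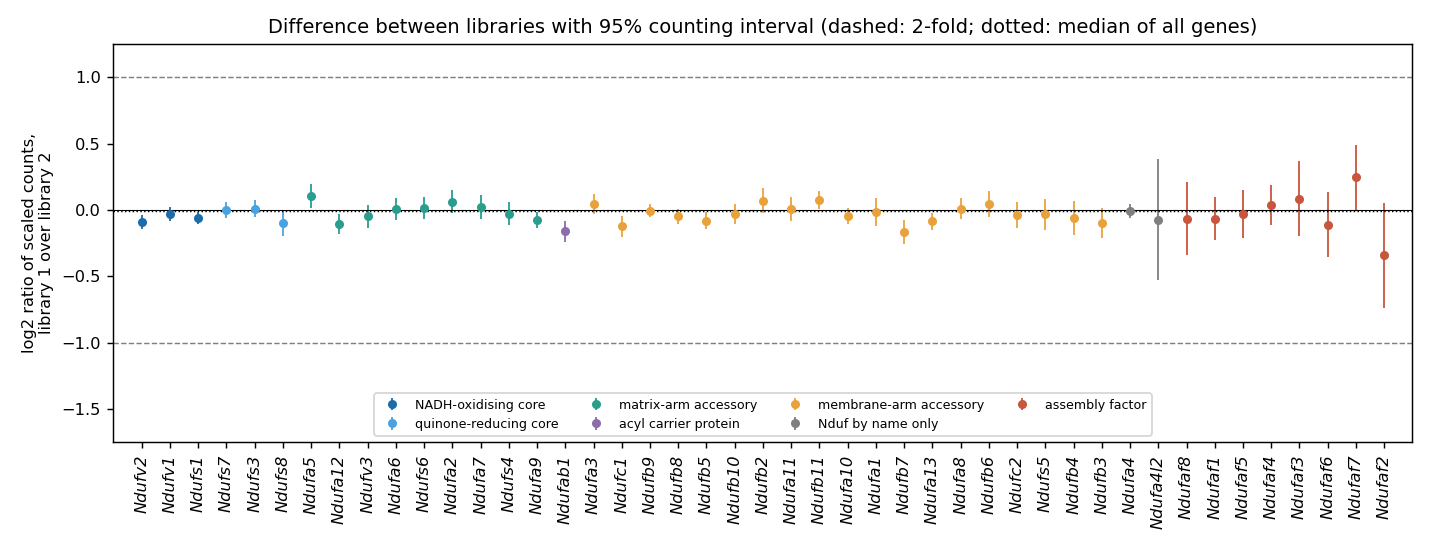
Log2 ratio of TMM-scaled counts, library 1 over library 2, for 45 of the 46 members with their 95% counting intervals, with dashed lines at 2-fold and a dotted line at the median of all genes. All 45 points lie between -0.34 and 0.24, and the intervals are widest for the assembly factors and Ndufa4l2.

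Ndufb4, a membrane-arm subunit, shares its whole coding sequence with Ndufb4c, a single-exon copy on chromosome 15 (73809507 to 73809896). All 100-base windows of the copy occur in Ndufb4, whereas 16.0% of the windows of the Ndufb4 transcripts occur in the copy. GENCODE lists the copy as a processed pseudogene, so it is not a member here, whereas RefSeq lists it as protein-coding. Over all 390 coding bases of Ndufb4, stop codon included, the 2 sequences had 0 differences. Their first 90 bases from the start codon are shown because reads inside such a stretch fit both genes equally.
Ndufb4: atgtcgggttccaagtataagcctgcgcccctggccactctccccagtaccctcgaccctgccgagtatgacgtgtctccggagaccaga
Ndufb4c: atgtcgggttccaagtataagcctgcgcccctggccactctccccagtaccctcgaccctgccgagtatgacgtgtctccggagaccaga
The first quantifier gave Ndufb4c 186 and 207 TPM, which was 73.0% and 72.9% of the sum of both genes. The second gave it 50.7 and 43.5 TPM, or 27.4% and 20.8% of the sum. The sum itself was 255 and 283 TPM (269 ± 19.9) in the first quantifier and 185 and 209 TPM (197 ± 16.8) in the second. Read as a sum of TPM, Ndufb4 would stand above the structural median instead of next to the lowest place. That place depends on model lengths, since the copy has 390 bases and the leading Ndufb4 model 465. The coding model Ndufb4-201 has 971 bases. The summed counts were 2611 and 2557 in the first quantifier, and their level on the coding model alone was not computed.

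Another membrane-arm subunit was left out by the rule for a similar reason. Ndufb1-ps (chromosome 12, 101968090 to 101977068) is a long noncoding RNA in GENCODE and the protein-coding gene Ndufb1 in RefSeq. It had 99.95 and 117 TPM (109 ± 12.3) from 1317 and 1354 counts, within the range of the structural subunits. The remaining Nduf-named entries without a protein-coding transcript, Ndufa11b, Ndufab1-ps and Ndufs6b, had at most 1.48 counts in either library.

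Other members share sequence with other annotated genes to a smaller degree. Of the 100-base windows of each gene's transcripts, 12.7% for Ndufs5, 11.4% for Ndufa12, 11.1% for Ndufb9, 8.40% for Ndufs3 and 4.67% for Ndufab1 also occur in another annotated gene. For Ndufb9 that gene is Gm49356, which overlaps its exons on the same strand over 201 bases. The authors' posterior SD of the count exceeded 0.5% of the count in both libraries for only 4 members. These were Ndufb4 (2.04% in each library), Ndufs5 (1.297% and 1.35%), Ndufab1 (1.31% and 1.03%) and Ndufa12 (0.724% and 0.594%). It was 0 in both libraries for 34 members. Some members also overlap a gene on the opposite strand. Ndufaf2 shares 65.7% of its exonic bases with B230220B15Rik, listed at 0 TPM in both libraries, and Ndufb6 shares 39.0% with Smim27 (17.61 and 18.95 TPM). The libraries are directional, but the sources used here do not say whether strand was used in counting.

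The quantifiers gave similar levels for most members. Only Ndufb4 differed by more than 1.5-fold in both libraries, at 1.95 and 2.15 times as high in the second quantifier. Ndufaf3 (1.488 and 1.501 times), Ndufs3 (1.41 and 1.55 times), Ndufa5 (1.48 and 1.19 times), Ndufa6 (1.34 and 1.37 times) and Ndufaf2 (1.34 and 1.33 times) were also higher there. Ndufab1 (0.706 and 0.692 times) and Ndufa10 (0.752 and 0.758 times) were lower. The quantifiers subtract different lengths from a transcript. Over the longer transcripts this was 100 bases in the first and a median of 228 and 231 bases in the second. Short transcripts were left out of these figures, and whether the lengths underlie the differences was not tested. The leading transcript was shorter than 700 bases for 21 of the 36 structural subunits.

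**Figure D4:**
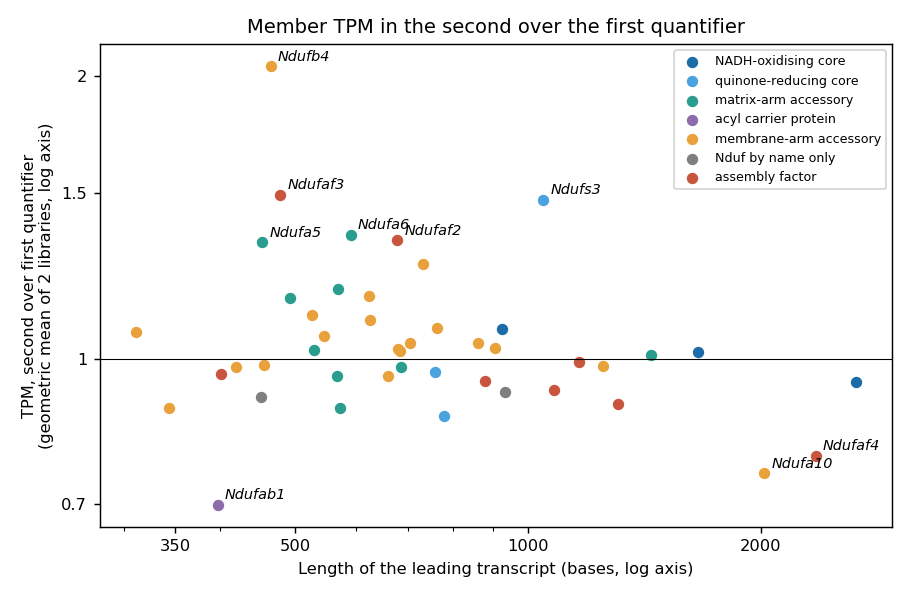
TPM of 45 of the 46 members in the second over the first quantifier, as the geometric mean of both libraries, against the length of its leading transcript, both on log axes. Ndufb4 lies highest near 2-fold, and Ndufab1 lies lowest, at 0.706 and 0.692 times in libraries 1 and 2.

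Not all RNA of these genes was assigned to transcripts annotated as protein-coding. The members have 115 protein-coding models, which held 76.3% and 77.0% of their TPM in the first quantifier and 72.6% and 71.6% in the second. Models with a retained intron held 8.93% and 9.39%, and models annotated as targets of nonsense-mediated decay, the pathway that destroys RNAs with an early stop codon, held 7.75% and 7.61% in the first quantifier. For 25 members over 90% of first-quantifier TPM was protein-coding in both libraries. On the same measure, for 8 members under 50% was protein-coding in both: Ndufa3, Ndufa5, Ndufa10, Ndufab1, Ndufaf8, Ndufb4, Ndufc1 and Ndufs4. In the second quantifier Ndufs3 (36.2% and 37.4%) and Ndufaf4 (34.9% and 45.1%) were also under 50%, while Ndufa5 was at 71.8% and 48.1%. In 7 members the leading transcript was not protein-coding in either quantifier. By expected counts, which weigh long transcripts more, the protein-coding share was 85.5% and 86.3%. On that measure Ndufa10 (50.4% and 51.8%) and Ndufaf8 (59.5% and 60.6%) were above 50%, while Ndufaf4 was at 19.2% and 22.7%. The same shares and counts over all genes were not computed, so these values do not set the members apart from other genes. Protein was not measured.

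**Figure D5:**
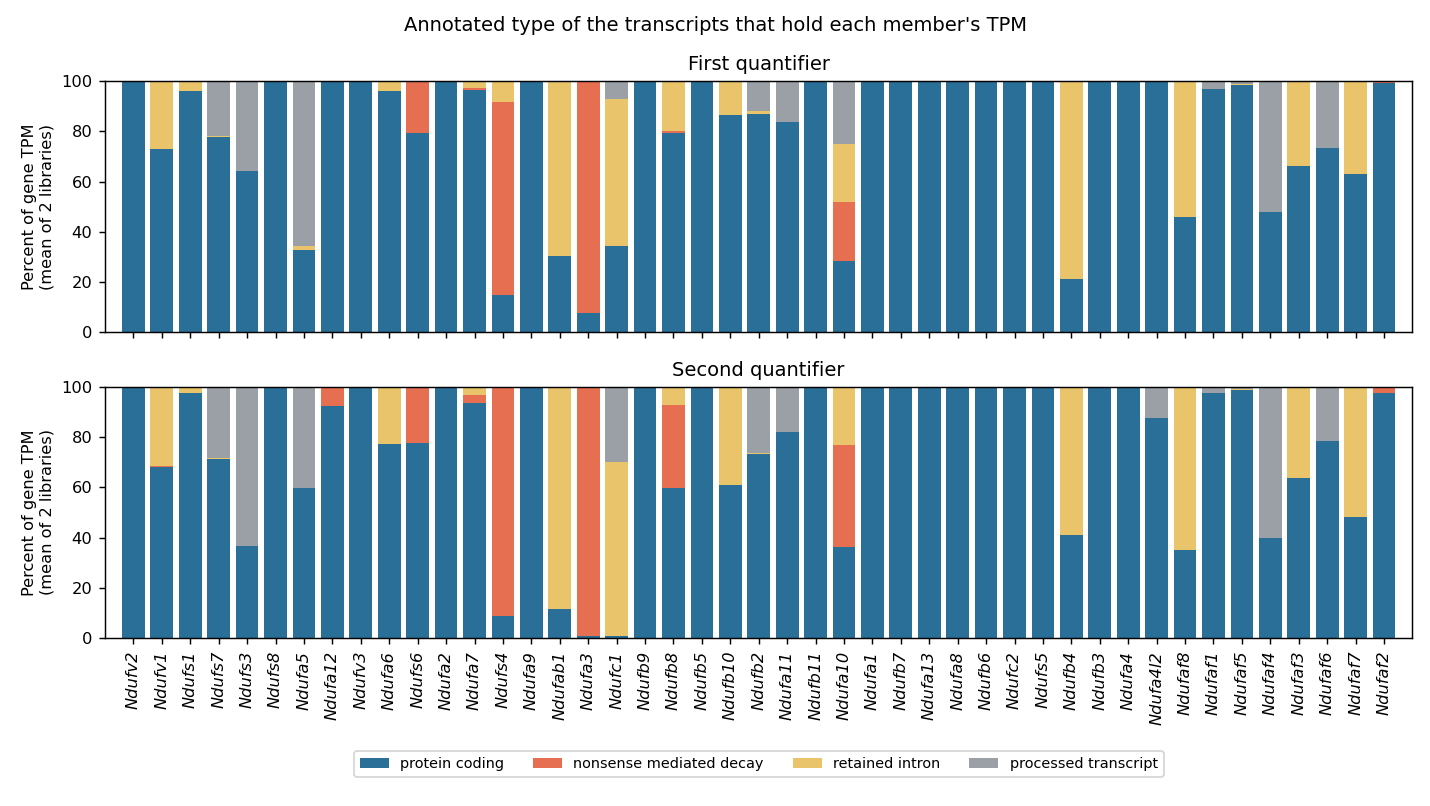
Percent of TPM, for 45 of the 46 members, held by transcripts of each annotated type, as the mean of both libraries, in the first quantifier (top) and the second (bottom). Ndufa3 and Ndufs4 were held mostly by nonsense-mediated decay models and Ndufab1 and Ndufc1 mostly by retained-intron models in both panels, while Ndufs3 and Ndufa5 changed between panels.

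Ndufa3, the highest structural subunit in the first quantifier, was the extreme case there. The decay model Ndufa3-204 held 92.2% and 92.3% of its TPM in libraries 1 and 2 in the first quantifier, and 88.6% and 88.5% in the second. Its 343 bases share 97.1% with the coding model Ndufa3-201, which held 3.11% and 3.58%. The main difference inside the exons is 10 bases at the end of exon 1, which shift the reading frame. The start of the coding sequence is shown for both, with those bases in capitals.
Ndufa3-201: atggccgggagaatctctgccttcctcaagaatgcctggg
Ndufa3-204: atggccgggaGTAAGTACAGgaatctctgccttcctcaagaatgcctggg
The coding model also reaches 164 bases further at its 3′ end and 18 bases further at its 5′ end. The deposited tables do not show which of these differences decided the assignment.

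Ndufs4 showed a similar pattern with an added exon. Ndufs4-204, with an extra exon of 50 bases after exon 1 (chromosome 13, 114387408 to 114387457), held 67.9% and 60.7% of TPM in the first quantifier and 89.3% and 77.1% in the second. Its annotated reading frame ends inside that exon, whose 13 coding bases are in capitals after the last 20 bases of exon 1.
Ndufs4-204: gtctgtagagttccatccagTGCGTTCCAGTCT
The full coding model Ndufs4-201 held 4.17% and 5.13%, and it extends 853 bases further at the 3′ end. All protein-coding models of Ndufs4 together held 16.9% and 12.8%.

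Retained-intron and other noncoding models led at further members. Ndufc1-203, a model of 311 bases, held 58.4% and 58.6% of Ndufc1 in the first quantifier and 68.6% and 69.7% in the second. The coding model Ndufc1-204 held 33.8% and 34.7% in the first quantifier but 1.59% and 0% in the second. Ndufb4-202, which lacks exon 1, held 80.8% and 76.1% of Ndufb4 in the first quantifier and 57.9% and 59.6% in the second. Coding reads that were assigned to the identical copy Ndufb4c do not enter these shares. Ndufab1-205 held 38.7% and 37.9% in the first quantifier and 85.5% and 85.8% in the second. Ndufa5-204, a processed transcript that shares exons 2 to 4 with the coding model Ndufa5-201, held 64.9% and 66.0% in the first quantifier and 28.2% and 51.9% in the second. Ndufa10 had no dominant transcript in the first quantifier, where Ndufa10-201 led with only 27.9% in each library. In the second quantifier the nonsense-mediated decay model Ndufa10-207 led Ndufa10, and the processed transcript Ndufs3-204 led Ndufs3. Among the assembly factors in the first quantifier, Ndufaf8-203 held 55.9% and 52.2%, and Ndufaf4-202 held 54.4% and 49.9%. In Ndufaf7 the coding model Ndufaf7-206 held 31.9% and 40.9%, and the retained-intron model Ndufaf7-205 held 36.0% and 36.3%.

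Other members changed their leading transcript between quantifiers without leaving the protein-coding type. Ndufa4-204 held 84.4% and 85.1% of Ndufa4 in the first quantifier and 0% in the second, where Ndufa4-205 led with 46.2% and 52.7%. Ndufa9-203 held 99.8% and 97.9% in the first quantifier and 27.3% and 32.2% in the second. The leading transcript was the same in both quantifiers for 38 of 46 members.

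Ndufv3, an accessory subunit at the tip of the matrix arm, is made as a short and a long protein that differ by 1 large exon, and here the short form held nearly all RNA. The exon has 1092 bases, all coding (chromosome 17, 31527310 to 31528401). The long model Ndufv3-201 held 0.874% and 0.954% of Ndufv3 TPM (0.914 ± 0.057%), from 68.8 and 75.1 expected counts. The short model Ndufv3-202 held 99.1% and 98.8%. Both share the bases before the junction, and the bases after it in capitals tell them apart.
Ndufv3-202: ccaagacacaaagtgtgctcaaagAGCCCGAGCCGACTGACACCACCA
Ndufv3-201: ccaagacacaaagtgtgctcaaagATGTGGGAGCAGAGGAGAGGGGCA
In the second quantifier the long share was 0.722% and 0.770%. By counts, which are not divided by length, it was 3.21% and 3.49% in the first quantifier and 3.57% and 3.82% in the second.

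The promoters of the members were searched on both strands for the letters of 3 factors known to act on respiratory genes. RefSeq promoters (GRCm38.p6, 250 bases before to 50 after the start) matched 40 of 46 members by symbol. The NRF1 motif, GCGC followed by any base and TGCGC, was present in 9 of them (22.5%), against 7.17% of 17492 protein-coding genes. The carriers were Ndufa5, Ndufa6, Ndufa8, Ndufa11, Ndufb4, Ndufs5 and Ndufs6 among the subunits, and Ndufaf4 and Ndufaf5 among the assembly factors. Ndufb4 held 3 copies. The sites outside annotated exons are printed on the gene's strand with the motif, in either orientation, in capitals.
Ndufa11, chr17:56717692-56717721, + strand: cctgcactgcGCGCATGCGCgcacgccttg
Ndufaf4, chr4:24897960-24897989, + strand: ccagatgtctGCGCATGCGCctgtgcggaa
Ndufb4, chr16:37654540-37654569, - strand: gagaagcagtGCGCACGCGCagaatacgcg
Ndufs5, chr4:123718265-123718294, - strand: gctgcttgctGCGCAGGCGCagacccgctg
The GABP motif CCGGAAGT was found in 1 member, Ndufs3 (2.5%, against 5.69%), and the ERR-alpha motif TNAAGGTCA in 1, Ndufb4 (2.5%, against 1.20%). The motifs do not overlap in these members. A match describes letters only and was not tested as a binding site. Motif carriers included high and low subunits, with Ndufa5 at 237 TPM and Ndufs5 at 105 TPM as means of both libraries.

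A divergent arrangement was taken as another protein-coding gene that starts on the opposite strand, at most 1000 bases upstream of the gene's start. It was present at 13 of 46 members (28.3%), against 6.79% of 21888 nuclear genes with a protein-coding transcript. Pairs with overlapping starts, where the other gene begins downstream of the gene's start, were left out of both shares. The closest of the counted pairs was Ndufa7 and the ribosomal protein gene Rps28, whose starts lie 10 bases apart. Ndufa7 had 148 and 163 TPM and Rps28 had 301 and 302 TPM. Ndufb9 starts 18 bases from Tatdn1, which had 14.4 and 16.9 TPM. Ndufa8 starts 52 bases from Morn5, listed at 0 TPM in both libraries while Ndufa8 had 112 and 125 TPM. Except for Rps28, none of the 13 partners exceeded 27.5 TPM in either library. Eef1b2, which shares 9 exonic bases with Ndufs1 on the opposite strand, is not among the 13 and had 176 and 188 TPM.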

How the data were processed

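Total RNA from 2 gastrocnemius samples (300 ng each, per the labels' protocols) was sequenced with a directional kit and spike-in RNAs. The deposited read-me names mm10 and GENCODE M21. Which software was used is not stated in the labels or files. Per the file headers, 1 gene and 1 transcript table per library carry expected counts, TPM, posterior means and SDs, and the percent of a gene's TPM per transcript, all made by the authors (the first quantifier). A further transcript table carries estimated counts and TPM, as deposited by the authors (the second quantifier).

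Symbols and transcript types came from identifiers in the second quantifier's tables. Left out were 86 gene identifiers with no symbol there (1847 and 1871 expected counts), 97 spike-in entries and 26248 numeric entries (1 and 0 counts). Levels are deposited TPM, compared between genes per length. Transcript percents were recomputed from TPM. Ratios used rounded expected counts with edgeR 4.0.16 TMM factors and exact binomial intervals, in scipy 1.17.1, checked on simulated data. A gene was called apart at a mean of at least 5 TPM, a summed count of at least 100 and a fold of at least 2.

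Named were the 3 highest and 2 lowest genes of each class, genes apart or with the 3 largest ratios, genes whose quantifiers or leading transcripts stood out, Ndufa4, Ndufa4l2, Ndufv3 and genes with copies. The members, lists and rules were chosen with earlier results of these data known. Values of 1 member are not reported here by name, though it stays in all counts and medians. Other genes were named after their values were seen. Sequences came from GENCODE M21 transcripts and RefSeq promoters. CAST reads were assigned against mm10, and the effect on single genes was not tested.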

Additional observations from a re-analysis of the deposited data

How the results depend on the processing

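Alternatives were run for the summaries named in this paragraph, and the protein-coding share had those given with it. Among the results without one were the divergent neighbours, the count within 2-fold of the structural median and the mitochondrial-to-nuclear ratio. The interval counts, the shares and SDs of complexes II to V and the shared windows also had none. Detection stayed at 46 with the second quantifier, with a minimum of 0.5 TPM and in each library alone, and was 45 at a minimum of 5 TPM, which Ndufa4l2 missed. Rescaling TPM to nuclear protein-coding genes gave medians of 405 for structural subunits and 36.5 for assembly factors, since other RNA then leaves the total; the second quantifier and posterior means moved either by less than 1 SD. The share of nuclear protein-coding TPM was 1.82% in the second quantifier and 0.494% when taken from expected counts. The median log2 ratio was -0.19 in deposited TPM and 0.04 with spike-in scaling, whose median over all genes was 0.06. The Ndufv3 long share was 0.746% in the second quantifier, and the cause was not tested. The log2 gap between classes, the SD over structural subunits and the count of 0 members apart kept their values within 1 SD or at 0. With 1 library left out, detection stayed at 46 to 46, the structural median ran 162 to 176, that of assembly factors 14.0 to 16.6, their log2 gap 3.40 to 3.54, the SD 0.63 to 0.64 and the share 1.78% to 1.79%. Any of the motifs was present in 10 of 40 members (25%), against 13.3% of protein-coding genes. Searching 250 bases before the start only left 7 of these 10 members with a motif. All 7 held that of NRF1 (17.5%, against 5.84% of protein-coding genes). The second quantifier moved the TPM of 19 of 46 members and the leading share of 33 by more than 1 SD between libraries. No paired analysis was possible because both libraries belong to 1 group. Depth limits the ratios of assembly factors and Ndufa4l2 most.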
